A study of Mus musculus with 9 samples.

Results

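The genes described here are 10 core members of the Notch pathway, taken by name: the receptors Notch1, Notch2, Notch3 and Notch4, the ligands Jag1, Jag2, Dll1 and Dll4, and the target genes Hes1 and Hey1. All 10 were among the 49585 genes of the tables, and all 10 passed the filter on low counts that left 14415 genes for testing. Notch receptors are membrane proteins that bind Jagged or Delta-like ligands on a neighbouring cell. Binding leads to cuts by ADAM proteases and γ-secretase, which release the intracellular part of the receptor. That part enters the nucleus, joins the DNA-binding protein RBPJ and switches on genes such as those of the Hes and Hey repressors. In skin, Notch signalling is known for its part in the differentiation of keratinocytes and in the hair follicle, while Notch4 and Dll4 are best known from the lining of blood vessels and Notch3 from the smooth muscle cells and pericytes around them.

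RNA from whole mouse skin was sequenced in 9 libraries, 3 a group. The groups were wild-type C57BL/6 mice, wild-type BALB/c mice and mice of the C57BL/6 strain with the genotype IL-6 -/-, which lack both copies of the gene of the cytokine interleukin 6 by label. All mice came from 1 supplier aged 4 to 5 weeks, had 2 weeks to acclimate, entered the experiment at 6 weeks and were shaved on day 0. They then went 7 days without treatment, and skin was taken on day 8, so that skin of every group had been shaved. The protocol names 3 C57BL/6, 3 BALB/c and 6 IL-6 -/- mice. No label says that a library is 1 mouse, and the p-values below measure the spread between libraries, which may be technical in part.

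Total exon reads ran from 6083876 to 6882193 in C57BL/6, from 6115739 to 6242332 in BALB/c and from 3843953 to 4476346 in the libraries labelled IL-6 KO, called KO-labelled below. Il6 itself went against the last label: it had 2, 1 and 0 reads in C57BL/6, 0, 2 and 0 in BALB/c, with 6, 24 and 1 in the KO-labelled libraries. The deleted stretch of the gene is not given in the labels, so reads outside it would not check the deletion. The tables of that group also lacked a column that the other 6 have, so the genotype and the making of the tables cannot be told apart. BALB/c replicate 2 had 130 reads of Xist, an RNA of the inactive X chromosome, and the other libraries at most 5 each, and the labels give no sex.

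Markers of epidermis were present in every group. All 10 suprabasal markers, such as the keratins and cornified-envelope genes of differentiated layers, and all 7 basal markers had reads in each group. So did all 16 skeletal muscle markers, so having reads is no check of the label of skin. The KO-labelled libraries stood apart in other markers. Their 15 hair matrix and cortex markers, which are hair keratins and their partners, summed to 18100, 3500 and 13700 CPM (read counts scaled to a common library size), against 31.7 to 142 in C57BL/6 and 27.5 to 40.6 in BALB/c, where Krt33b and Krt81 were at 0. Replicate 2 of the KO-labelled libraries was the lowest of its group in these markers, in the 10 markers of the inner root sheath (15600 against 60100 and 41200 CPM) and in the 10 markers of cycling cells (357 against 811 and 791 CPM). The 8 melanocyte markers, of pigment cells, had the same order, with 819, 103 and 921 CPM against 30.5 to 51.2 in the 6 wild-type libraries, where Oca2 was at 0 in BALB/c. All 6 of them that passed the filter rose against each strain, beside 19.2% of all genes against C57BL/6 and 19.9% against BALB/c. The suprabasal markers summed to 5260, 21600 and 8300 CPM in the KO-labelled libraries, with replicate 2 highest, against 10400 to 17100 in C57BL/6 and 17200 to 19500 in BALB/c. The 12 endothelial markers, all with reads in each group, summed to 194 to 245 CPM there, 434 to 663 in C57BL/6 and 200 to 427 in BALB/c. The 10 mural cell markers, of the cells around vessels, summed to 322 to 379, 587 to 880 and 455 to 525 CPM in the same order, and the 16 skeletal muscle markers to 11100 to 12500, 64500 to 115000 and 31900 to 66800 CPM.

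RefSeq promoter windows on GRCm38.p6, 250 bases before to 50 bases after an annotated start, were at hand for 8 of the 10 genes. Hes1 and Hey1 are named only. The windows of 4 genes are shown because these genes moved in pairs in the KO-labelled libraries, Notch1 and Jag1 upwards and Notch4 and Dll4 downwards. Capitals mark CpG dinucleotides, the pairs of bases at which vertebrate DNA is methylated. The Notch1 window is chr2:26503773-26504072 on the minus strand and lies inside the longer gene model of the tables, the Jag1 window is chr2:137116471-137116770 on the minus strand, the Notch4 window is chr17:34564045-34564344 on the plus strand and the Dll4 window is chr2:119325534-119325833 on the plus strand.
Notch1: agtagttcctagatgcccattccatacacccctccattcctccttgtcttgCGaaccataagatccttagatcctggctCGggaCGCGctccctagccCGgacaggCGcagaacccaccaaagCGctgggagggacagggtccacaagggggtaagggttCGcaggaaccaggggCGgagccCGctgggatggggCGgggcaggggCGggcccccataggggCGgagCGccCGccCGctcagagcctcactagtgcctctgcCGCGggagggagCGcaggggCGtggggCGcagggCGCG
Jag1: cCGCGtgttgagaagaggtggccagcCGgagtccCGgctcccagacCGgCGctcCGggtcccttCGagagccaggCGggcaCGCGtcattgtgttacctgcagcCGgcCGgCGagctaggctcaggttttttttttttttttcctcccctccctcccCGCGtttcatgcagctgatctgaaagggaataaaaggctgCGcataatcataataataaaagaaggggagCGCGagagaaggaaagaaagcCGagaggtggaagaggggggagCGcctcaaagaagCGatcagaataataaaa
Notch4: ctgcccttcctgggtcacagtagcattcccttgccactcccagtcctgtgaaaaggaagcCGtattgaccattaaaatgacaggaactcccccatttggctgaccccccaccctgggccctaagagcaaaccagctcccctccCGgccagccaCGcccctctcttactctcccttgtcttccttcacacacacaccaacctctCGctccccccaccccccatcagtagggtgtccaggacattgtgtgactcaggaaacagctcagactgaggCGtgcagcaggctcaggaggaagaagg
Dll4: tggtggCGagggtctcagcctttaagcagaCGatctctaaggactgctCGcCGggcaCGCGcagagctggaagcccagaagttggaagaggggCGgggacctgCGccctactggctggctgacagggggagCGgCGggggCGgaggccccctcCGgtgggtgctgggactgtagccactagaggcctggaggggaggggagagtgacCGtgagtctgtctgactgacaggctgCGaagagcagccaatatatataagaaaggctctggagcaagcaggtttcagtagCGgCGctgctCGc
The Notch1 window held 23 CpG dinucleotides, the Jag1 window 22, the Dll4 window 17 and the Notch4 window 5, against a median of 7 over all 32851 windows of that length. The Jag2 window, chr12:112929446-112929745 on the minus strand, held 63, the most of any member. The 4 windows were printed after the changes of their genes were known. Of the other members, Notch2 held 41, Notch3 25 and the 2 windows of Dll1 24 and 15. The members called higher in at least 1 comparison held 41 (Notch2), 23 (Notch1) and 22 (Jag1). Those called lower held 17 (Dll4) and 5 (Notch4). Jag2, Notch3 and Dll1 were called in no comparison, and a link of these counts to the direction of change was not tested. Notch4 stood lowest.

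The hexamer TGGGAA, the core of the RBPJ binding motif, was searched on both strands, where it reads TTCCCA on the other. It was in 0 of the 9 windows of the 8 members and in 25.6% of all windows. The window of Lfng, which codes for a sugar transferase that modifies Notch receptors and which appears among the other pathway genes below, held 2 matches, in capitals here and chosen after they were seen, at chr5:140607091-140607390 on the plus strand.
Lfng: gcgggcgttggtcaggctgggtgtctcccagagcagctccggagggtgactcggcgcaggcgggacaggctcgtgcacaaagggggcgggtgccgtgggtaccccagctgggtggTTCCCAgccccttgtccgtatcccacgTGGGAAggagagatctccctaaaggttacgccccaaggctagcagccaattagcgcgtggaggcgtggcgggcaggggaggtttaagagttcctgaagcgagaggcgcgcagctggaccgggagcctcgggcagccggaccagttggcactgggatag
Of the other pathway genes searched, Hes5, which did not pass the filter on low counts, also held 2 and Nrarp 0. A match is a description of letters, and its absence from these windows says nothing of sites elsewhere.

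Per kilobase of exon, the ligand Jag2 had the highest level of the 10 genes in both wild-type strains. Its mean was 28.9 CPM per kb in C57BL/6 and 25.0 in BALB/c, and the repressor gene Hes1 came next at 19.7 and 18.2. Counting all exon reads, Notch3 led the receptors in mean level in both strains, at 12.6 CPM per kb in C57BL/6 and 10.2 in BALB/c. Counting only reads unique to a gene, Notch2 led in all 6 wild-type libraries, with means of 9.63 and 7.84 CPM per kb against 6.61 and 5.01 for Notch3. The levels that follow use all exon reads. In C57BL/6 the libraries of Notch2 (9.64), Jag1 (8.73), Notch1 (7.65) and Dll1 (6.50) overlapped from each gene to the next, and so did those of Dll4 (2.52), Hey1 (2.41) and Notch4 (1.90) at the low end. In BALB/c Notch3, Jag1 (8.96) and Notch2 (7.86) overlapped in turn, then Notch1 (5.12) and Dll1 (4.60), and then Notch4 (1.96), Dll4 (1.74) and Hey1 (1.62).

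The order differed in the KO-labelled libraries. Hes1 (25.9 CPM per kb), Jag1 (23.4) and Jag2 (22.9) overlapped at the top. Notch1 followed at 17.3 and overlapped with Notch2 (13.3), which overlapped with Notch3 (11.9). Dll1 stood alone at 5.08, and Hey1 (1.19), Dll4 (0.809) and Notch4 (0.717) overlapped at the bottom. Notch1 thus stood above Notch3 in mean level there and below it in both wild-type strains, also in unique reads (12.1 and 6.67 CPM per kb there). In unique reads the highest receptor mean there was that of Notch2, at 13.3 CPM per kb. By library, Notch1 led in 2 of the 3 and Notch2 in 1.

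**Figure D1:**
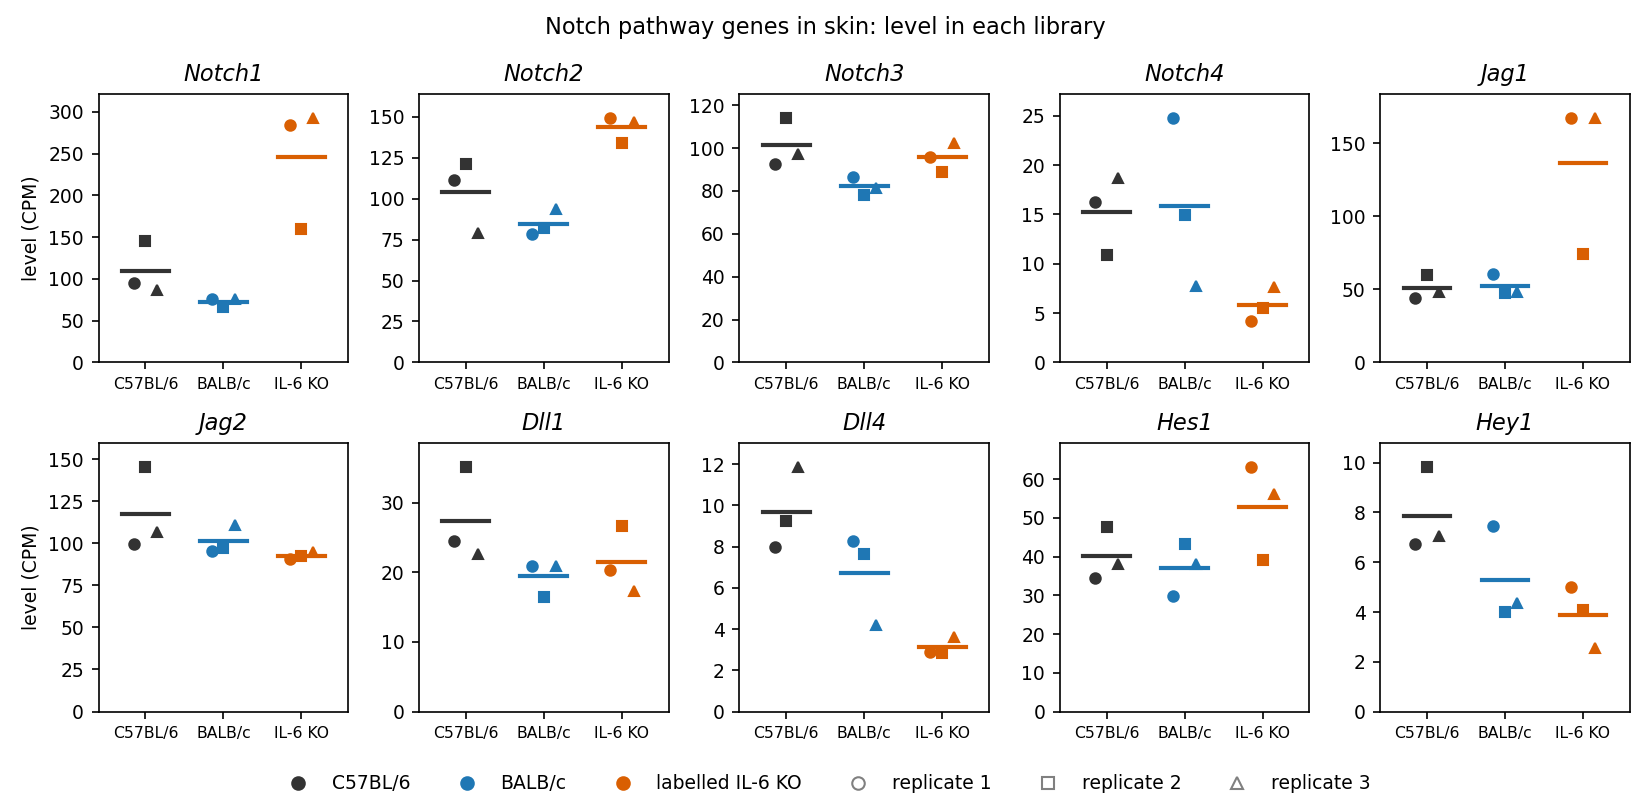
Level of each of the 10 genes in CPM (linear axis from 0, its own range for each gene) in each library, with circles, squares and triangles for replicates 1, 2 and 3 and a bar at the group mean. Notch1 and Jag1 are higher in all 3 KO-labelled libraries than in all 6 others, with replicate 2 the lowest of its group, while Notch4 and Dll4 are lower there than in all 6 others.

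The first comparison asked how the wild-type strains differ. None of the 10 genes passed the test between BALB/c and C57BL/6 (quasi-likelihood test of edgeR, Benjamini-Hochberg adjusted over all genes, threshold 0.05). DESeq2 also called 0, and 2 of 10, Notch3 and Dll1, had an unadjusted p under 0.05, beside 19.3% of all genes. Of all genes, 3.41% passed, of which 235 genes (1.63%) were higher in BALB/c and 256 (1.78%) lower, and scaling by library size alone gave 225 higher and 159 lower. The libraries of the strains did not overlap for 3 of 10, Notch1, Notch3 and Dll1, all lower in BALB/c, against 30.2% of all genes. The median log2 fold change of the 10 genes was -0.30 and that of all genes tested -0.01.

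The second comparison set the KO-labelled libraries against C57BL/6, the strain their labels share. Notch1, the main receptor of suprabasal keratinocytes, and its ligand Jag1 rose, to 2.26 and 2.67 times the C57BL/6 level. Notch4 and Dll4, a receptor and a ligand of vessels, and the target gene Hey1 fell. That makes 5 of 10 genes called, beside 35.2% of all genes, with 2 higher beside 19.2% and 3 lower beside 16.0%. The libraries did not overlap for 7 of 10, beside 47.5% of all genes. For a list of 10 these shares lie near those of all genes, so the counts are no result about the Notch genes as a group. The median log2 fold change of the 10 was -0.21 beside 0.01 for all genes. Scaling by library size alone moved the median of all genes to 0.15 and the split of all calls from 2767 higher and 2301 lower to 3489 and 1661, while it called 5 of the 10, with Notch2 (adjusted p = 0.0404) in the place of Hey1 (0.0772).

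The third comparison set the same libraries against BALB/c. It shares these 3 libraries with the second comparison, so the results are not independent of each other. Notch1, Notch2 and Jag1 rose, to 3.38, 1.69 and 2.61 times the BALB/c level, and Notch4 and Dll4 fell. Again 5 of 10 genes were called, beside 37.3% of all genes, with 3 higher beside 19.9% and 2 lower beside 17.4%. The libraries did not overlap for 7 of 10, beside 50.7% of all genes, and the median log2 fold change was 0.18 beside 0.01 for all genes.

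**Figure D2:**
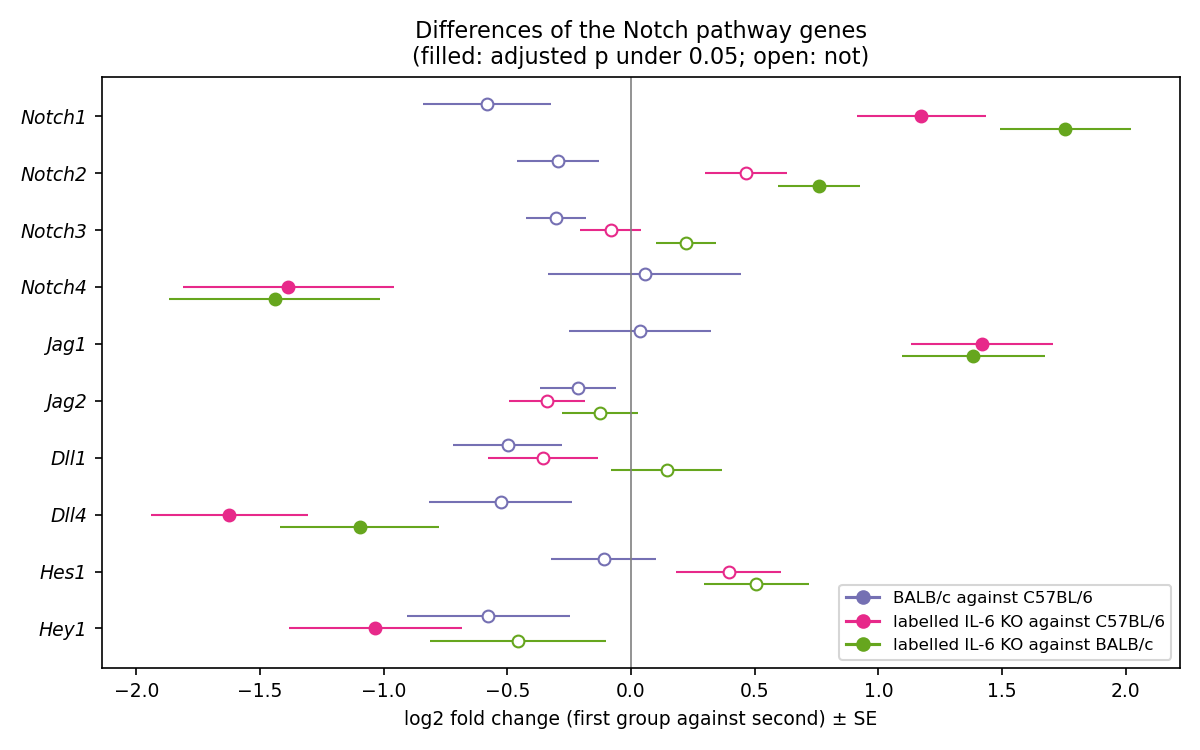
Log2 fold change of each of the 10 genes in the 3 comparisons, with bars of 1 standard error (SE) and filled points where the adjusted p was under 0.05. All points for BALB/c against C57BL/6 are open, and the filled points are those of Notch1, Jag1, Notch4 and Dll4 in both comparisons of the KO-labelled libraries, Notch2 against BALB/c and Hey1 against C57BL/6.

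Among the receptors, Notch1 (ENSMUSG00000026923, chr2:26457903-26516663, minus strand, GRCm38) differed most in the upward direction. It had 94.8, 144.8 and 87.1 CPM in C57BL/6, 75.6, 66.4 and 76.4 in BALB/c, with 284.7, 160.1 and 292.7 in the KO-labelled libraries, from 400 to 1382 reads each. All 3 KO-labelled libraries were above all 6 others, with replicate 2 much nearer to the C57BL/6 range than its fellows. The log2 fold change was 1.17 ± 0.26 (SE; adjusted p = 0.00774) against C57BL/6 and 1.75 ± 0.26 (adjusted p = 0.00131) against BALB/c. Without replicate 2, the library lowest in hair markers, these were 1.40 (adjusted p = 8.8e-04) and 1.99 (adjusted p = 1.48e-04), and the calls were kept when any 1 library was left out. BALB/c against C57BL/6 gave -0.58 ± 0.26 (adjusted p = 0.259) with no overlap of the libraries.

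Between 27.9% and 35.2% of Notch1 exon reads were not counted as unique to the gene. Its exons share 1068 bases with the antisense transcript 0610009E02Rik and 414 with Gm13568 in GENCODE, and the counting is not stated to use strand. With unique reads alone the log2 fold changes of Notch1 were 1.16 and 1.80. The partner 0610009E02Rik itself had 72, 93 and 71 reads in C57BL/6 and 60, 45 and 54 in BALB/c. It had 70, 39 and 18 in the KO-labelled libraries, and these counts are not scaled to depth. Over all 9 libraries 11 of its 522 reads were unique to it, and 0 of the 154 of Gm13568. Notch1 had 6658 reads, 4611 of them unique, and the source of the others was not tested. The hair matrix, inner root sheath, cycling and melanocyte markers were, like Notch1, highest in the KO-labelled libraries, with replicate 2 the lowest of its group. Between the strains they did not all follow Notch1, which was lower in BALB/c. The cycling markers summed to 186 to 221 CPM in BALB/c and 116 to 185 in C57BL/6. The part of these marker sets in the result was not tested. The summed suprabasal markers were lowest where Notch1 was highest, in replicates 1 and 3. Gene by gene these markers were mixed. Against C57BL/6, 4 of the 10 rose (Flg, Ivl, Dsc1 and Calml3) and 1 fell, beside 19.2% and 16.0% of all genes. Against BALB/c, 2 rose (Ivl and Calml3) and 1 fell, beside 19.9% and 17.4%. Their part was not tested either. In whole skin, fewer cells of a type and less RNA per cell cannot be told apart.

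Notch2 (ENSMUSG00000027878, chr3:98013527-98150361, plus strand), a receptor found in many tissues, had 111.5, 121.1 and 79.1 CPM in C57BL/6, 78.5, 82.0 and 93.7 in BALB/c, with 149.4, 134.3 and 147.2 in the KO-labelled libraries. Those 3 libraries were again above the 6 others, here with a narrow spread. Notch2 rose against BALB/c, by a log2 fold change of 0.76 ± 0.17 (adjusted p = 0.00701). Against C57BL/6 it missed the threshold, with 0.47 ± 0.16 (adjusted p = 0.0528). That value passed with DESeq2 (adjusted p = 0.0413), with scaling by library size alone (0.0404), without C57BL/6 replicate 2 (0.0366) and without replicate 2 of the KO-labelled libraries (0.0451), and over all alternatives its adjusted p ran from 0.0366 to 0.159.

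Notch3 (ENSMUSG00000038146, chr17:32120820-32166880, minus strand) differed least of the receptors in the comparisons of the KO-labelled libraries, though between the strains its libraries did not overlap. It had 92.7, 114.1 and 97.3 CPM in C57BL/6, 86.7, 78.2 and 81.4 in BALB/c, with 96.1, 88.8 and 102.5 in the KO-labelled libraries. The last group lay within or beside the C57BL/6 range and above BALB/c. The log2 fold change was -0.08 ± 0.12 (adjusted p = 0.633) against C57BL/6, which turned to 0.05 with scaling by library size alone, and 0.22 ± 0.12 (adjusted p = 0.180) against BALB/c, which passed with unique reads alone (adjusted p = 0.0459). From 41.8% to 54.4% of its exon reads were not unique. It shares 488 exon bases with the antisense gene Gm17276, which had 13 reads over all 9 libraries. Notch3 had 4701 reads, 2461 of them unique, and the source of the others was not tested.

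Notch4 (ENSMUSG00000015468, chr17:34564268-34588503, plus strand), a receptor of endothelial cells, had 16.3, 10.9 and 18.7 CPM in C57BL/6, 24.8, 14.9 and 7.77 in BALB/c, with 4.22, 5.49 and 7.63 in the KO-labelled libraries, the last from 16, 27 and 36 reads. The highest of these 3 was just below the lowest BALB/c library. Notch4 fell by 1.39 ± 0.43 on the log2 scale against C57BL/6 (adjusted p = 0.0314) and by 1.44 ± 0.43 against BALB/c (adjusted p = 0.0259). The call against C57BL/6 was lost without C57BL/6 replicate 1 or 3 or without any 1 of the KO-labelled libraries, at adjusted p up to 0.104. That against BALB/c was lost without BALB/c replicate 1 or 2 or replicate 1 of the KO-labelled libraries, at up to 0.0887.

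Among the ligands, Jag1 (ENSMUSG00000027276, chr2:137081456-137116644, minus strand) rose with Notch1. It had 44.3, 60.0 and 48.4 CPM in C57BL/6, 60.7, 47.5 and 48.4 in BALB/c, with 167.3, 74.2 and 167.5 in the KO-labelled libraries, all of its reads unique. Replicate 2 was again the lowest of its group and still above all 6 wild-type libraries. The log2 fold change was 1.42 ± 0.29 (adjusted p = 0.00523) against C57BL/6 and 1.38 ± 0.29 (adjusted p = 0.00567) against BALB/c. Without replicate 2 it was 1.71 (adjusted p = 9.75e-05) and 1.68 (adjusted p = 9.2e-05), and the calls were kept when any 1 library was left out. Between the strains it was 0.04 ± 0.29 (adjusted p = 0.961), a value that turned to -0.08 without BALB/c replicate 1.

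Jag2 (ENSMUSG00000002799, chr12:112908590-112929495, minus strand), the other Jagged ligand, had 99.6, 145.2 and 106.9 CPM in C57BL/6, 95.2, 97.2 and 111.0 in BALB/c, with 90.8, 92.4 and 94.9 in the KO-labelled libraries. The last 3 lay just below all 6 others. It passed in no comparison, with -0.34 ± 0.15 (adjusted p = 0.116) against C57BL/6 and -0.13 ± 0.15 (adjusted p = 0.548) against BALB/c. Dll1 (ENSMUSG00000014773, chr17:15367354-15376872, minus strand), a Delta-like ligand known from epidermal stem cells, had 24.5, 35.1 and 22.6 CPM in C57BL/6, 21.0, 16.4 and 20.9 in BALB/c, with 20.3, 26.6 and 17.4 in the KO-labelled libraries. The BALB/c libraries were all below those of C57BL/6, with -0.50 ± 0.22 (adjusted p = 0.256), and the third group overlapped both. From 5.19% to 14.5% of the Dll1 reads were not unique, and 867 exon bases are shared with A930024N18Rik on the other strand. That gene had 83 reads over all 9 libraries, 64 of them unique to it, and Dll1 had 1168, 1031 of them unique.

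Dll4 (ENSMUSG00000027314, chr2:119325784-119335962, plus strand), the ligand of sprouting vessels, had 7.98, 9.23 and 11.9 CPM in C57BL/6, 8.26, 7.63 and 4.21 in BALB/c, with 2.90, 2.84 and 3.60 in the KO-labelled libraries, the last from 11, 14 and 17 reads. All 3 were below the 6 others. Dll4 fell by 1.62 ± 0.32 on the log2 scale against C57BL/6 (adjusted p = 0.00444), which was kept when any 1 library was left out. Against BALB/c it fell by 1.10 ± 0.32 (adjusted p = 0.0251), a call lost without BALB/c replicate 1 or 2 or without replicate 1 or 3 of the KO-labelled libraries, at adjusted p up to 0.0741.

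The target genes did not move together. Hes1 (ENSMUSG00000022528, chr16:30064384-30067796, plus strand), a repressor that Notch signalling switches on directly, had 34.4, 47.6 and 38.2 CPM in C57BL/6, 29.9, 43.3 and 38.2 in BALB/c, with 63.1, 39.2 and 56.1 in the KO-labelled libraries. Replicates 1 and 3 of the last group were above all others and replicate 2 lay inside the wild-type range. The log2 fold change was 0.40 ± 0.21 (adjusted p = 0.174) against C57BL/6 and 0.51 ± 0.21 (adjusted p = 0.0881) against BALB/c, and without replicate 2 both passed, at 0.57 (adjusted p = 0.0352) and 0.68 (adjusted p = 0.0167).

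Hey1 (ENSMUSG00000040289, chr3:8663359-8667256, minus strand), a related repressor, had 6.75, 9.82 and 7.04 CPM in C57BL/6, 7.47, 3.98 and 4.37 in BALB/c, with 5.01, 4.06 and 2.54 in the KO-labelled libraries, the last from 19, 20 and 12 reads. The last group was below all C57BL/6 libraries and overlapped BALB/c. Hey1 fell by 1.03 ± 0.35 on the log2 scale against C57BL/6 (adjusted p = 0.0449), close to the threshold. That call was lost without any 1 of the C57BL/6 libraries or of those labelled IL-6 KO, without BALB/c replicate 2 or 3, and with scaling by library size alone, at adjusted p up to 0.158. Against BALB/c it was -0.46 ± 0.36 (adjusted p = 0.337).

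Within the receptors, the share of Notch1 was larger and that of Notch3 smaller in the KO-labelled libraries. The level of Notch3 itself was called in neither comparison, so its smaller share is no fall of the gene. Of the reads per kilobase of the 4 receptors, Notch1 took 43.2%, 31.8% and 42.9% there (39.3% ± 6.53, SD, n = 3), 23.8% ± 3.27 in C57BL/6 and 20.3% ± 0.916 in BALB/c. Notch3 took 27.9% ± 2.90, 39.8% ± 3.10 and 40.6% ± 0.297 in the same order. The groups did not overlap for either gene in the comparisons of the KO-labelled libraries, each with an exact two-sided permutation p of 0.10, the smallest that 3 against 3 can give. Notch2 took 31.2% ± 3.51, 30.2% ± 3.77 and 31.3% ± 3.56, with overlapping groups, and Notch4 1.68% ± 0.473, 6.19% ± 2.37 and 7.74% ± 3.90. Being shares of 1 total, these 4 values are not independent, and reads of Notch1 and Notch3 that were not unique count in them. With unique reads alone the Notch3 share was lower by less, with differences of -7.80 percentage points against C57BL/6 and -6.93 against BALB/c, where all exon reads gave -11.99 and -12.75. The Notch1 differences were 14.1 and 17.8 with unique reads, beside 15.5 and 19.0.

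Within the 4 ligands, Jag1 took 50.7%, 29.9% and 50.3% of the reads per kilobase in the KO-labelled libraries (43.6% ± 11.9, SD, n = 3), against 18.8% ± 0.601 in C57BL/6 and 22.2% ± 2.84 in BALB/c. Jag2 took 44.7% ± 7.74, 61.8% ± 1.04 and 62.0% ± 4.30. Jag1 thus reached the share of Jag2 in replicates 1 and 3 and not in replicate 2. Both differences had no overlap between the groups (exact permutation p = 0.10, the smallest possible). Dll1 took 10.2% ± 4.08, 13.9% ± 1.25 and 11.4% ± 1.02, and Dll4 1.57% ± 0.211, 5.51% ± 1.49 and 4.35% ± 1.50.

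**Figure D3:**
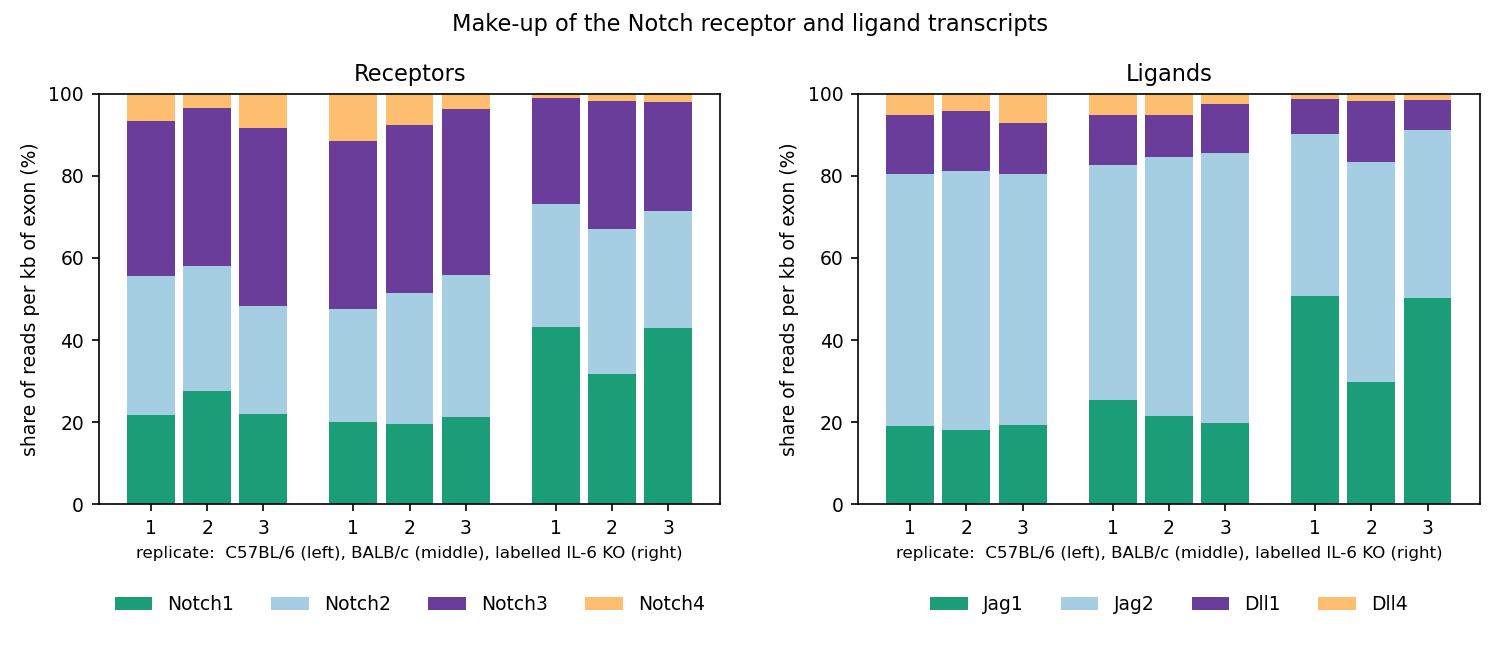
Share in percent of the reads per kilobase of exon that each of the 4 receptors (left panel) and each of the 4 ligands (right panel) took in each library, with the replicates of C57BL/6, BALB/c and the KO-labelled libraries from left to right. The Notch1 and Jag1 parts at the foot of the bars are largest in the last group, where Jag1 ranges from 29.9% to 50.7%.

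The vessel genes were set beside the vessel markers in each library. In the KO-labelled libraries against C57BL/6, 11 of 12 endothelial markers fell, beside 16.0% of all genes. Their median log2 fold change was -1.36, beside -1.39 for Notch4 and -1.62 for Dll4. The log2 ratio of Notch4 to the summed endothelial markers was -5.13 ± 0.20 (SD, n = 3) in C57BL/6 and -5.23 ± 0.49 in the KO-labelled libraries, with overlapping groups (exact permutation p = 0.80). For Dll4 it was -5.77 ± 0.20 and -6.09 ± 0.34, also overlapping (exact permutation p = 0.30). A p of this size does not show the ratios to be equal.

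Against BALB/c, 4 of 12 endothelial markers fell, beside 17.4% of all genes, with a median of -0.72. The Notch4 ratio was -4.36 ± 0.30 in BALB/c (SD, n = 3), higher than in all C57BL/6 libraries by 0.77 (exact permutation p = 0.10, the smallest possible) and overlapping with the KO-labelled libraries (difference -0.87, exact permutation p = 0.20). The Dll4 ratio was -5.50 ± 0.23 in BALB/c and 0.59 lower in the KO-labelled libraries, without overlap (difference -0.59, exact permutation p = 0.10).

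Notch3 behaved otherwise beside the mural markers. Of the 9 tested, 6 fell against C57BL/6 (median -1.65) and 5 against BALB/c (median -1.31), beside 16.0% and 17.4% of all genes. Notch3 passed in neither comparison. The log2 ratio of Notch3 to the summed mural markers was -1.85 ± 0.09 (SD, n = 3) in the KO-labelled libraries, -2.77 ± 0.41 in C57BL/6 and -2.60 ± 0.11 in BALB/c. All 3 KO-labelled libraries were above the 6 others, by 0.93 and 0.75 on average (exact permutation p = 0.10 in each, the smallest possible). The part of the mural cells in this result was not tested.

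**Figure D4:**
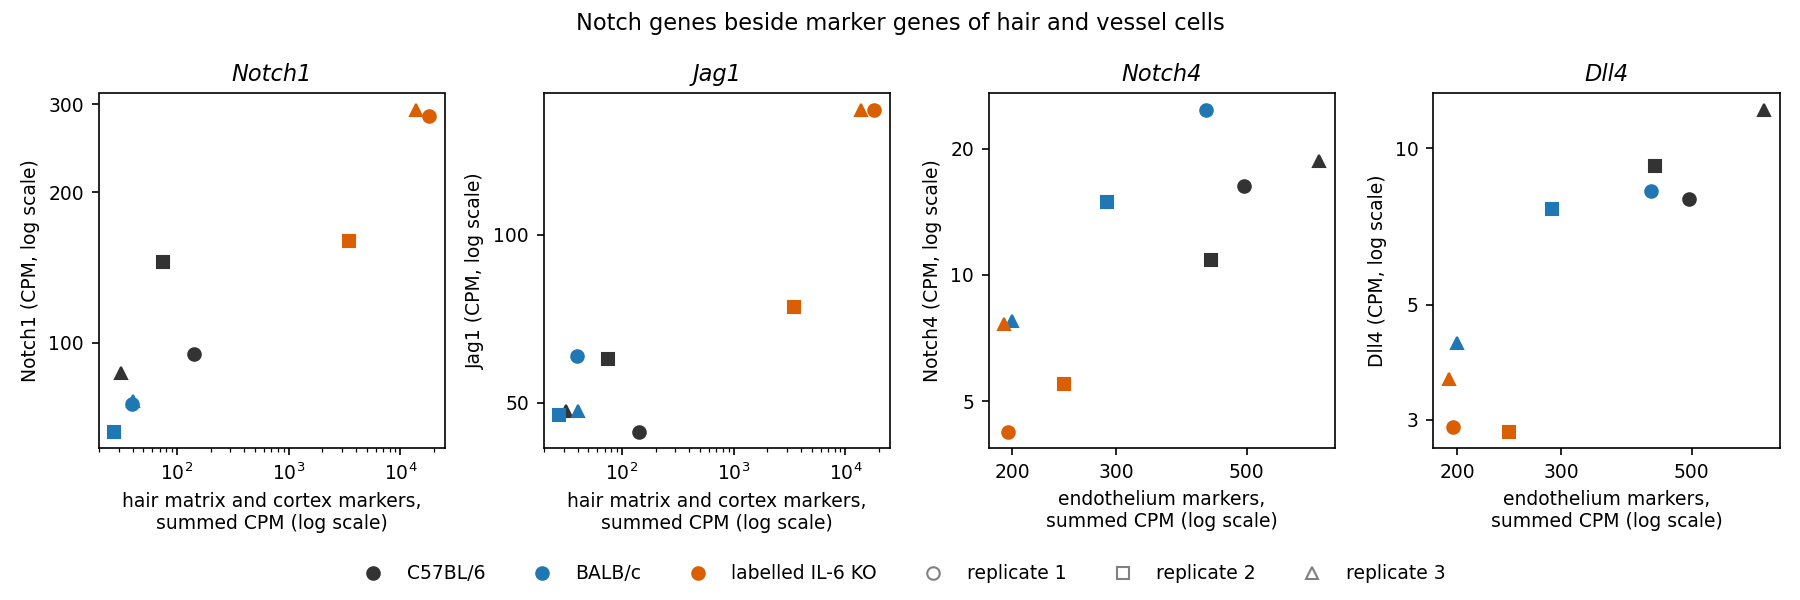
Level in CPM of Notch1 and Jag1 against the summed CPM of the hair matrix and cortex markers, and of Notch4 and Dll4 against that of the endothelial markers, 1 point a library and both axes on log scales. The KO-labelled libraries lie at 3500 to 18100 CPM of hair markers with replicate 2 lowest, and at 194 to 245 CPM of endothelial markers.

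Intron reads, which come mostly from RNA not yet spliced, gave a second readout for 7 of the 10 genes, with Notch4, Dll4 and Hey1 below the filter. Notch1 and Jag1 rose in intron reads too, from low counts. Notch1 had 10, 29 and 19 intron reads in C57BL/6, 19, 25 and 8 in BALB/c, with 55, 28 and 56 in the KO-labelled libraries. Jag1 had 21 to 82 a library and Dll1 5 to 36. These counts are not scaled to depth. Against C57BL/6 the log2 fold change of intron reads was 1.51 ± 0.40 (SE) for Notch1 (adjusted p = 0.0127) and 1.26 ± 0.26 for Jag1 (adjusted p = 0.00267), with 2 of 7 called beside 23.6% of the 10378 genes tested on introns. Against BALB/c it was 1.85 ± 0.40 (adjusted p = 0.00407) and 1.54 ± 0.26 (adjusted p = 5.92e-04), again 2 of 7 beside 23.5%. None of the 7 passed between the strains, beside 6.50% of genes by edgeR's quasi-likelihood test, and 1 of them, Dll1, had an unadjusted p under 0.05 there (log2 fold change -1.16), beside 20.5% of genes. Against C57BL/6, Dll1 (-1.28, adjusted p = 0.0511) and Notch2 (0.74, adjusted p = 0.138) were under 0.05 before adjustment only, which makes 4 of 7 beside 35.9% of genes. Against BALB/c the 2 called genes were the 2 of 7 under that limit, beside 35.8%. The intron reads come from the same libraries and are no independent sample.

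The genes whose pattern over the 9 libraries was most like that of each called member were taken from 11853 genes by the root mean square (RMS) difference of centred log2 CPM. Nearest to Notch1 were Tfap2a (RMS 0.117), a transcription factor of epidermis, and Efnb1 (0.129), an ephrin ligand. Nearest to Jag1 were Incenp (0.123), of the chromosomal passenger complex in dividing cells, and Eif2b3 (0.124), a translation initiation factor subunit. Notch2 was nearest to Tulp4 (0.0857) and Nectin1 (0.0973), the latter a cell adhesion protein. Dll4 was nearest to Robo4 (0.147) and Fgd5 (0.204) and Notch4 to Bcl6b (0.230) and Rgs5 (0.267), of which Robo4, Fgd5 and Bcl6b are known from endothelium and Rgs5 from pericytes. Hey1 was nearest to Nol4l (0.193) and Tmem204 (0.257). These are descriptions over 9 libraries that share their groups.

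The rest of the pathway was read from 48 further genes in 7 lists, of which 42 passed the filter and Dll3, Dner, Hes3, Hes5, Hes7 and Hey2 did not. None of the 42 passed between BALB/c and C57BL/6 by edgeR's quasi-likelihood test, with 5 at an unadjusted p under 0.05, beside 19.3% of all genes, and 1 called by DESeq2. Of these 42, 16 were called in the KO-labelled libraries against C57BL/6, 10 higher and 6 lower, beside the 35.2% of all genes. Another count of 16, 13 higher and 3 lower, was called against BALB/c beside 37.3%. The median log2 fold changes were -0.17, -0.01 and 0.10 in the 3 comparisons, and leaving out 1 library moved the counts against C57BL/6 between 10 and 21 and those against BALB/c between 10 and 18.

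Of the 7 further Hes and Hey genes, 3 were tested. Heyl and Hes2 rose in both comparisons of the KO-labelled libraries, and the third was called in neither. That makes 2 of 3 called higher, beside 19.2% of all genes against C57BL/6 and 19.9% against BALB/c. Whether Notch signalling drives Heyl or Hes2 here was not tested. Heyl, a Hey family repressor, had 7.06, 7.14 and 9.45 CPM in C57BL/6, 10.2, 7.14 and 2.43 in BALB/c, with 54.4, 17.5 and 47.2 in the KO-labelled libraries. The last 3 were above all others, with replicate 2 lowest, and the log2 fold change was 2.33 ± 0.50 (adjusted p = 0.00674) against C57BL/6 and 2.58 ± 0.51 (adjusted p = 0.00452) against BALB/c. Hes2 had 2, 0 and 1 reads in C57BL/6, 0, 1 and 1 in BALB/c, with 45, 15 and 56 in the KO-labelled libraries. The ratio of its CPM was 53.6 against C57BL/6 (95% interval 17.9 to 264.0, counting error only) and 79.9 against BALB/c (21.6 to 667.0). Heyl and Hes2 thus went the other way from Hey1 against C57BL/6.

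Among the inhibitors and turnover genes, 2 of 10 rose in both comparisons of the KO-labelled libraries, beside 19.2% and 19.9% of all genes. The count is near those shares and is no result about this list. Numb, which opposes Notch in cells that inherit it, had 39.1, 43.5 and 43.7 CPM in C57BL/6, 38.8, 37.0 and 35.3 in BALB/c, with 93.4, 58.3 and 84.5 in the KO-labelled libraries. Its groups did not overlap, and its log2 fold change was 0.90 ± 0.17 (adjusted p = 0.00362) and 1.09 ± 0.17 (adjusted p = 0.00151). Nrarp, a Notch target that limits the signal, had log2 fold changes of 0.78 ± 0.19 and 1.06 ± 0.19 (adjusted p = 0.0128 and 0.00313), but 98.8% of its reads were not unique to it.

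The ubiquitin ligases that make ligands active split. Mib1 rose in both comparisons, by 0.80 ± 0.17 (adjusted p = 0.00673) on the log2 scale against C57BL/6 and by 0.58 ± 0.17 (adjusted p = 0.0262) against BALB/c. Mib2 fell by 0.76 ± 0.15 (adjusted p = 0.00458) and by 0.50 ± 0.15 (adjusted p = 0.0286). Neurl1a had 66.1, 63.3 and 87.5 CPM in C57BL/6, 34.8, 82.5 and 63.0 in BALB/c, with 12.1, 17.1 and 16.7 in the KO-labelled libraries, below all others. It fell by 2.23 ± 0.31 (adjusted p = 9.58e-04) and by 1.96 ± 0.31 (adjusted p = 0.00149). Neurl1b fell against C57BL/6 alone, by 0.65 ± 0.22 (adjusted p = 0.0414), and was -0.26 against BALB/c (adjusted p = 0.373), a difference between the comparisons that was not tested. Of all genes, 16.0% were called lower against C57BL/6 and 17.4% against BALB/c. Skeletal muscle markers, of which 15 of 16 fell in each of these comparisons, moved with Neurl1a and Mib2 between the groups. Within BALB/c they summed to 31900, 66800 and 62900 CPM, the order of Neurl1a. Mib2 (48.8, 39.7 and 38.4 CPM) and Neurl1b (12.07, 11.95 and 10.68 CPM) had another order there. The part of the muscle markers was not tested.

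Of the sugar transferases that modify receptors, Lfng, whose window is printed above, had 21.2, 26.9 and 25.6 CPM in C57BL/6, 17.3, 15.6 and 15.2 in BALB/c, with 25.9, 28.2 and 26.9 in the KO-labelled libraries. BALB/c was the low group, without overlap with either other group. Lfng rose against BALB/c by 0.75 ± 0.14 on the log2 scale (adjusted p = 0.00398), and BALB/c against C57BL/6 gave -0.61 (adjusted p = 0.0517). Mfng, its relative, had 50.8, 22.4 and 26.9 CPM in BALB/c and 6.33, 19.5 and 5.51 in the KO-labelled libraries, and fell by 1.66 ± 0.47 (adjusted p = 0.0222). Against C57BL/6 Pofut1, which adds the first fucose, fell by 0.38 ± 0.12 (adjusted p = 0.0336), and Poglut1, which adds glucose, rose by 0.50 ± 0.14 (adjusted p = 0.0217).

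Of the 10 protease genes, Furin and Adam10, whose products make the first cuts in the receptor on its way to and at the cell surface, rose in both comparisons. The list had 2 of 10 called higher against C57BL/6, beside 19.2% of all genes, and 3 of 10 against BALB/c, beside 19.9%. For a list of 10 these counts are near those shares and are no result about this list. The log2 fold changes of Furin were 0.50 ± 0.11 and 0.57 ± 0.11 (adjusted p = 0.00663 and 0.00374), and those of Adam10 0.62 ± 0.17 and 0.53 ± 0.17 (adjusted p = 0.0183 and 0.0316). Of the γ-secretase subunits, Ncstn was called against BALB/c at 0.30 ± 0.10 (adjusted p = 0.0437), and no other subunit was called in either comparison.

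In the nuclear complex, Kdm5a, a histone demethylase that acts with RBPJ, rose by 0.98 ± 0.18 and 0.65 ± 0.18 on the log2 scale (adjusted p = 0.00345 and 0.0196), and the coactivator Maml3 by 0.84 ± 0.20 and 0.82 ± 0.20 (adjusted p = 0.0101 and 0.0110). Maml1 rose against BALB/c by 0.55 ± 0.12 (adjusted p = 0.00754), with 94.2% of its reads not unique. Of the 2 ligand-like genes tested, 1 was called, Dlk2, beside 16.0% of all genes called lower against C57BL/6. Dlk2 fell against C57BL/6 by 1.78 ± 0.44 (adjusted p = 0.0120), with 17.0, 23.2 and 15.6 CPM in C57BL/6 and 1.85, 9.35 and 4.66 in the KO-labelled libraries.

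Of the calls named for these other genes, those of Neurl1a, Numb, Maml3, Furin, Heyl and Hes2 were kept in each comparison when any 1 library was left out, as were Kdm5a, Mib1 and Mib2 against C57BL/6 and Lfng, Maml1 and Nrarp against BALB/c. Against C57BL/6, single libraries of that strain or of the KO-labelled group ended the calls of Neurl1b (adjusted p up to 0.13; BALB/c replicates 2 and 3 did so too), Pofut1 (up to 0.0893), Poglut1 (up to 0.0795) and Adam10 (up to 0.0696). C57BL/6 replicates 1 and 3 did so for Nrarp (up to 0.055), and KO-labelled replicate 3 for Dlk2 (0.0512). Against BALB/c, KO-labelled replicate 1 or a BALB/c library ended those of Mib1 (up to 0.101), Mib2 (up to 0.0972), Mfng (up to 0.0799), Adam10 (up to 0.111) and Kdm5a (up to 0.0687), all but Mib2 also without KO-labelled replicate 3. The call of Ncstn was lost without any 1 of the 9 libraries, at up to 0.157.

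Processing choices ended some of these calls too. Scaling by library size alone did so for Pofut1 (adjusted p = 0.150) and Neurl1b (0.115) against C57BL/6 and for Mib2 (0.0866) against BALB/c. Exon plus intron reads did so for Mib1 (0.0507) and Mib2 (0.0604) against BALB/c, and testing with no low-count filter for Adam10 (0.0622) against BALB/c. A fit of the compared groups alone ended Neurl1b (0.0757) against C57BL/6 and Mib2 (0.0732) and Mfng (0.0612) against BALB/c, and scaling without muscle genes ended Neurl1b (0.0514). The deposited expression column, which differs between groups by construction, ended Mib1 (0.0603) and Adam10 (0.0771) against BALB/c. A block for the replicate number ended Neurl1b (0.0593) and Pofut1 (0.0719) against C57BL/6 and Mib2 (0.0625) against BALB/c. Ncstn was lost under 7 processing choices, unique exon reads among them (0.0718).

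**Figure D5:**
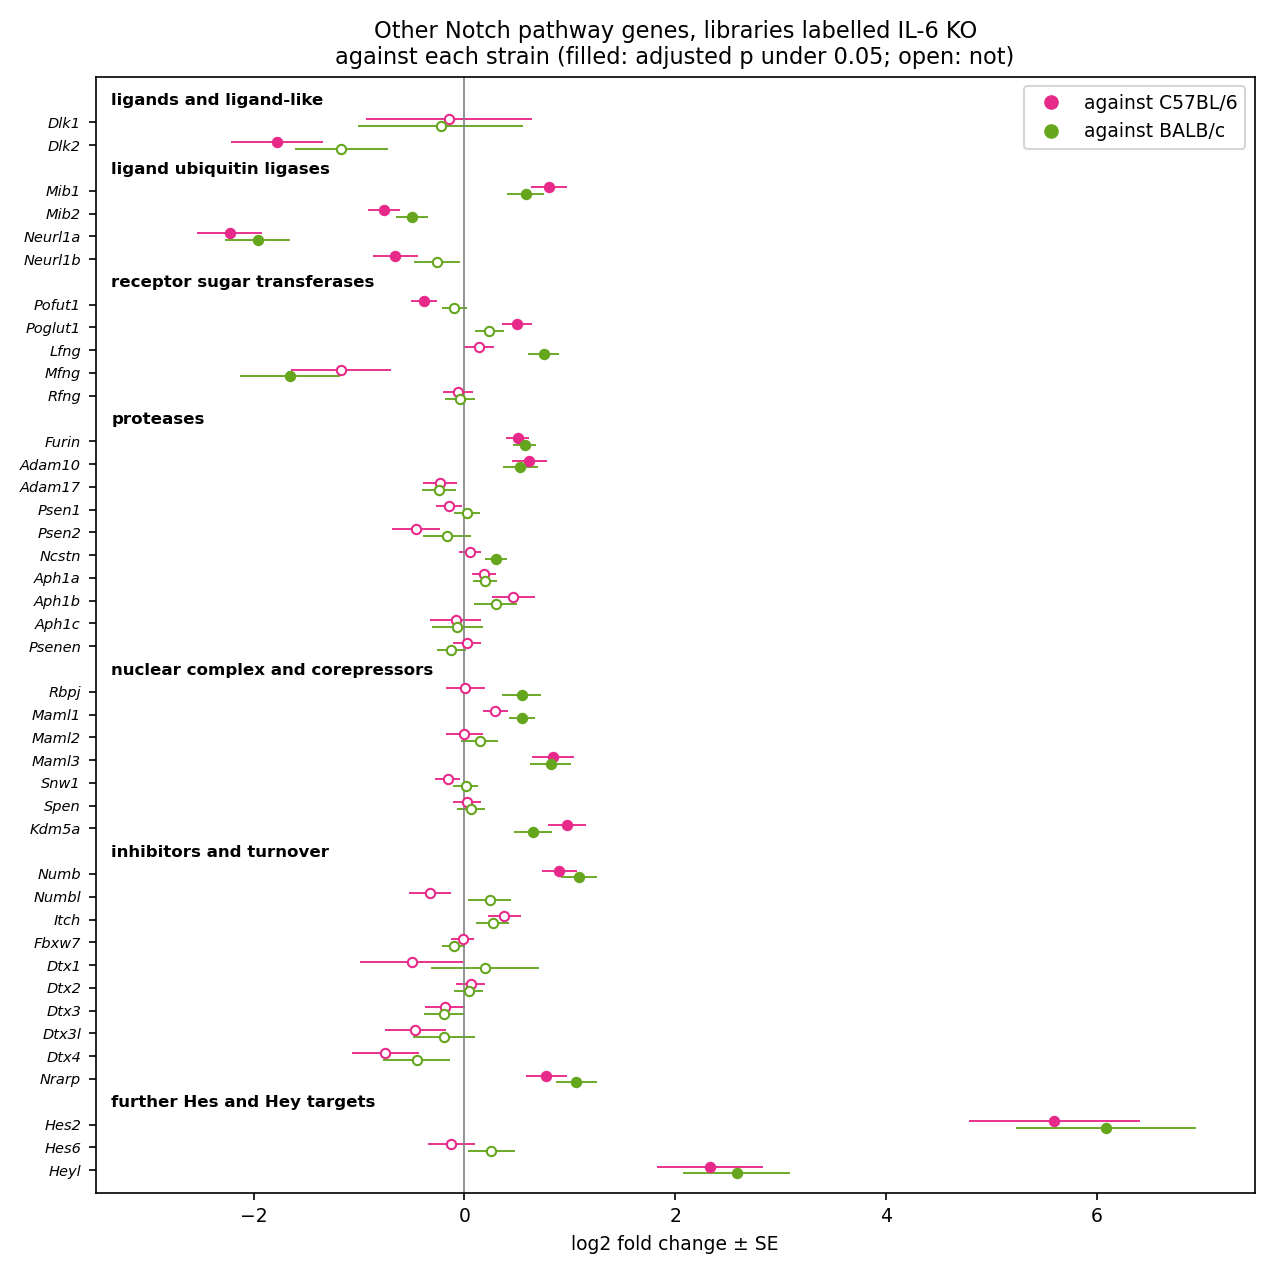
Log2 fold change of other tested Notch pathway genes in the KO-labelled libraries against C57BL/6 and against BALB/c, grouped by role, with bars of 1 SE and filled points at adjusted p under 0.05. Hes2 and Heyl lie farthest to the right and Neurl1a farthest to the left, and most of the remaining points lie within 1 log2 unit of 0.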

How the data were processed

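Gene tables of 9 skin libraries were used. The deposited total and unique exon read counts and intron read counts per gene, and the exon length in bases, are named per the file headers. The build was GRCm38, per the submitters' processing notes, and the libraries were made from total RNA with a TruSeq kit, per the labels' protocols. The aligner, the counter and whether strand was used: not given in the sources used here. C57BL/6 replicate 1 has a file of 3 tables, of which the first was used. An expression column equals total exon counts in the IL-6 KO tables and not in the others, so it served as an alternative only.

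Total exon counts were tested with edgeR 4.0.16 in R 4.3.3 (quasi-likelihood, TMM factors from 0.887 to 1.10, minimum count 10, minimum total 15, common dispersion 0.0524, 6 residual degrees of freedom), 1 model over all 9 libraries, adjusted over 14415 genes. The code was tested on simulated data. CPM used TMM-scaled library sizes. DESeq2 1.42.0, other scalings, filters, read columns, a replicate block and leaving out each library were alternatives. Shares and ratios were compared by exact permutation. Overlaps came from GENCODE vM21 and promoters from RefSeq.

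The members and lists were chosen with earlier results of these data known. All 10 members were named. At most 4 called genes of each further list, by smallest p, and the 2 genes of most like pattern to each called member (mean of at least 5 CPM, no predicted or clone names) were named. The values of 1 gene of the lists are not reported here. Windows were printed for pairs of genes that moved together, and that of Lfng for its motif matches. Libraries of 1 group differed by more than sampling noise (chi-square per degree of freedom at least 4.36). Depth was 3843953 to 6882193 reads, so genes under about 20 reads, such as Dll4 in the IL-6 KO libraries, are known least precisely. Same-numbered libraries of different groups deviated from their group means with correlations of -0.212 to 0.062, so the numbers were not taken as pairs.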

Additional observations from a re-analysis of the deposited data

How the results depend on the processing

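Over 20 alternatives each, of which exon plus intron reads was chosen after seeing the data, Notch1 and Jag1 kept their calls in both comparisons of the KO-labelled libraries, as did Dll4 against C57BL/6 and Notch2 against BALB/c. The 5 members called against C57BL/6 became 3 to 5 when 1 library was left out, and the 5 against BALB/c 3 to 6. No member was called between the strains under any alternative. All genes called between the strains, 491, became 1033 with DESeq2 and 167 to 977 when 1 library was left out. Those against C57BL/6, 5068, became 3238 to 6805 and those against BALB/c, 5370, became 3310 to 7044. The other Notch genes called between the strains, 0, became 1 with DESeq2, with unique exon reads, with exon plus intron reads and when 1 library was left out (0 to 1). Those against C57BL/6 were 10 to 21 and those against BALB/c 10 to 18 when 1 library was left out. With the replicate number as a block, which the labels do not state to be a pairing, 3 of 10 members were called against each strain. Notch4, Dll4 (against BALB/c) and Hey1 were lost. Of all 14415 genes, 4275 were called against C57BL/6, 4553 against BALB/c and 255 between the strains, so the calls of all genes fell too. The Notch3 ratio to mural markers against BALB/c was 1.02 with the geometric mean of the markers. Signs turned for differences that the report gives as not called. Between the strains these were Notch4 (-0.14 without C57BL/6 replicate 2, -0.42 without BALB/c replicate 1), Jag1 (-0.045 without C57BL/6 replicate 1, -0.076 without BALB/c replicate 1, -0.002 with exon plus intron reads) and Hes1 (0.033 without C57BL/6 replicate 2, 0.034 without BALB/c replicate 1). Against C57BL/6, Notch3 became 0.051 with library size alone, 0.009 without C57BL/6 replicate 2 and 0.739 with the expression column, which differs between groups by construction. Against BALB/c, Dll1 became -0.049 without replicate 2 of the KO-labelled libraries. Where no construction is named, the cause was not tested. Left-out libraries moved these 5 differences between -0.416 and 0.384 (Notch4), -0.076 and 0.171 (Jag1), -0.225 and 0.034 (Hes1), -0.155 and 0.009 (Notch3) and -0.049 and 0.279 (Dll1). Depth limits Dll4, Hey1 and Notch4, with 11 to 36 reads in each KO-labelled library.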
